A study of Saccharomyces cerevisiae with 15 samples.

Results

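The genes of chromosome I, the smallest yeast chromosome, were followed gene by gene in 5 strains of Saccharomyces cerevisiae, to see which transcripts doubled in ulp2 cells, which stayed below a doubling and which went past one. Members were the rows whose systematic ID begins with YAL or YAR, the prefixes of the left and right arm, with at least 1 FPKM (fragments per kilobase of transcript, scaled to library size) in at least 3 libraries, except 6 rows left out by name. Of 7126 rows in the table, 121 carried such an ID, 110 passed the level filter, and 104 were members. The other 11 rows stayed under the filter: 8 were listed at 0 in every library, and the highest value among the rest was 238 FPKM, reached by YAR035C-A in 1 library. RefSeq's annotation of build R64 places 85 of the members on chromosome I, and 19 members are known here by their ID alone.

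The table holds RNA-seq levels of polyA RNA from untreated cells grown in YPD medium at 30 °C, with 3 libraries, numbered 0 to 2, for each strain. The ulp2 strain carries ulp2::kanMX, the ulp2 slx5 double mutant carries ulp2::kanMX and slx5::kanMX, the slx5 strain carries slx5::kanMX, and the set1 strain carries set1::HIS3. By their labels these 4 strains are MATalpha with deletions at his3, leu2, met15, ura3 and lys2, whereas WT is MATa with deletions at his3, leu2, ura3 and lys2. Each group is 1 strain, and the labels do not say whether its libraries came from separate cultures, so p-values measure only the spread between these samples. ULP2 encodes a protease that trims chains of the small modifier SUMO from proteins. Slx5 is part of a ubiquitin ligase that recognises SUMO chains, and Set1 methylates histone H3.

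Each deleted gene was near 0 in the strains that lack it. ULP2 was at 0 to 0.0691 FPKM in ulp2 and at 0 to 0.0457 FPKM in the double mutant, against 28.9 to 32.5 FPKM in WT. SLX5 reached at most 0.0764 FPKM in the double mutant and 0.0622 FPKM in slx5, and SET1 at most 0.125 FPKM in set1. Other markers went against the labels. HMRA1, a gene with MATa-type expression, was at 204 to 219 FPKM in the double mutant and 204 to 271 FPKM in WT, and the double mutant, labelled MATalpha, had only 5.48 to 12.1 FPKM of the alpha-factor gene MF(ALPHA)1. LYS2 was at 44.6 to 47.8 FPKM in ulp2, 34.7 to 38.4 FPKM in the double mutant and 43.0 to 44.1 FPKM in slx5, although all are labelled lys2 deletions. The gene that the labels call met15, listed as MET17, was near 0 in slx5 and at 224 to 329 FPKM in the other mutants. Correlations of log2 levels between libraries ran from 0.960 to 0.981 within strains and from 0.923 to 0.960 between strains. Depth per library is not given in counts, but steps between low values put the libraries at 0.465 to 1.04 times that of WT replicate 1, set1 replicate 0 being the shallowest.

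Haploid yeast normally holds 1 copy of each chromosome, and a cell that gains another copy is disomic for it. Transcripts of most genes on a gained chromosome tend to follow the copy number, while the level of a single transcript also depends on the promoter's own regulation. Loss of ULP2 is known for gains of chromosomes I and XII, but no DNA was measured here, so copy number itself is not among these data. A rise in bulk RNA also cannot tell a gain in every cell from a larger gain in some of them.

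Transcripts of chromosome I were about doubled in ulp2 cells. The median member changed by 0.92 on the log2 scale of FPKM + 1, ulp2 over WT, a fold of 1.89. In the single ulp2 libraries the median difference from the WT mean was 0.897, 0.975 and 0.922, against -0.0158, 0.0118 and 0.0126 in the WT libraries. No other strain came near these values: the double mutant libraries had 0.328, 0.239 and 0.299, and the slx5 and set1 libraries lay between 0.0376 and 0.116. By limma's test with Benjamini-Hochberg adjustment over 6474 rows, 95 members were higher in ulp2 than in WT at an adjusted p under 0.05 and 0 were lower. Of all rows tested, 27.8% were higher and 26.7% lower by the same rule. At an unadjusted p under 0.05 the members counted 97 higher and 0 lower, and all 6474 rows counted 1919 higher and 1933 lower. In 98 members every ulp2 library lay above every WT library, an order that 29.5% of all rows showed, and in 0 members did every ulp2 library lie below, as it did in 27.8% of all rows.

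Chromosome XII moved as well, by less. Its 548 tested rows had a median change of 0.78 in ulp2 over WT, and the 5733 tested rows of the other chromosomes had a median of -0.066. FPKM are relative to the whole library, so a rise of many genes lowers the values of all others by construction. With the libraries centred on the rows off chromosomes I and XII, the median member changed by 0.983.

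**Figure D1:**
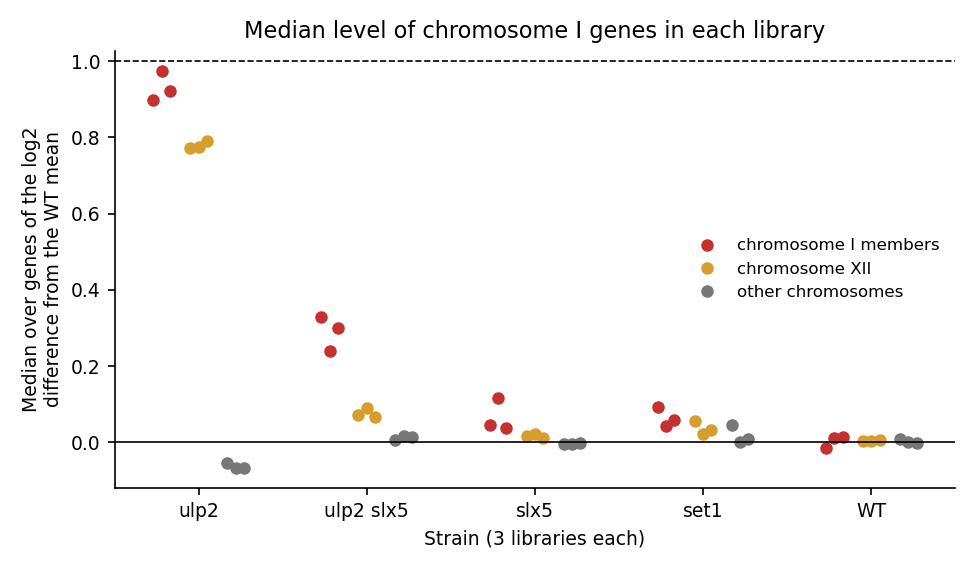
Median over genes of the log2 difference from the WT mean (y axis, log2 of FPKM + 1) for each of the 15 libraries (x axis, by strain), for the 104 chromosome I members, the 548 rows of chromosome XII and the other chromosomes. The ulp2 libraries stand at 0.897 to 0.975 for chromosome I, just under the dashed line of a doubling, and the double mutant at 0.239 to 0.328.

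A doubling is a change of 1 on the log2 scale, and each member was placed by the 95% confidence interval of its change, with no adjustment for the number of genes. The interval held 1 in 51 members, which are said here to follow a doubling. It lay wholly under 1 in 32 members and wholly above 1 in 21. These classes use the levels as given, not centred on the rows off chromosomes I and XII. That centring moved the median member from 0.92 to 0.983, so classes close to the bound depend on the scaling. PRP45, DRS2 and FUN12, counted as below with upper limits of 0.968, 0.977 and 0.986, may follow a doubling once centred. Over all rows tested the same shares were 13.5%, 82.5% and 3.97%, and on chromosome XII 204 rows followed a doubling, 274 stayed below it and 70 exceeded it. An interval that holds 1 also arises where a gene is poorly measured: PAU7, a member of the seripauperin family, changed by 1.64 with an interval of 0.69 to 2.58. The nearest to the bounds were AIM2, placed below with an upper limit of 0.997, and CYS3, placed above with a lower limit of 1.01. Just across them stood MST28 and SPO7, both with an upper limit of 1.01 and so counted as following. With 1 library left out in turn, 74 of the 104 members kept their class in every such fit, 26 of the 32 below, 32 of the 51 following and 16 of the 21 exceeding.

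**Figure D2:**
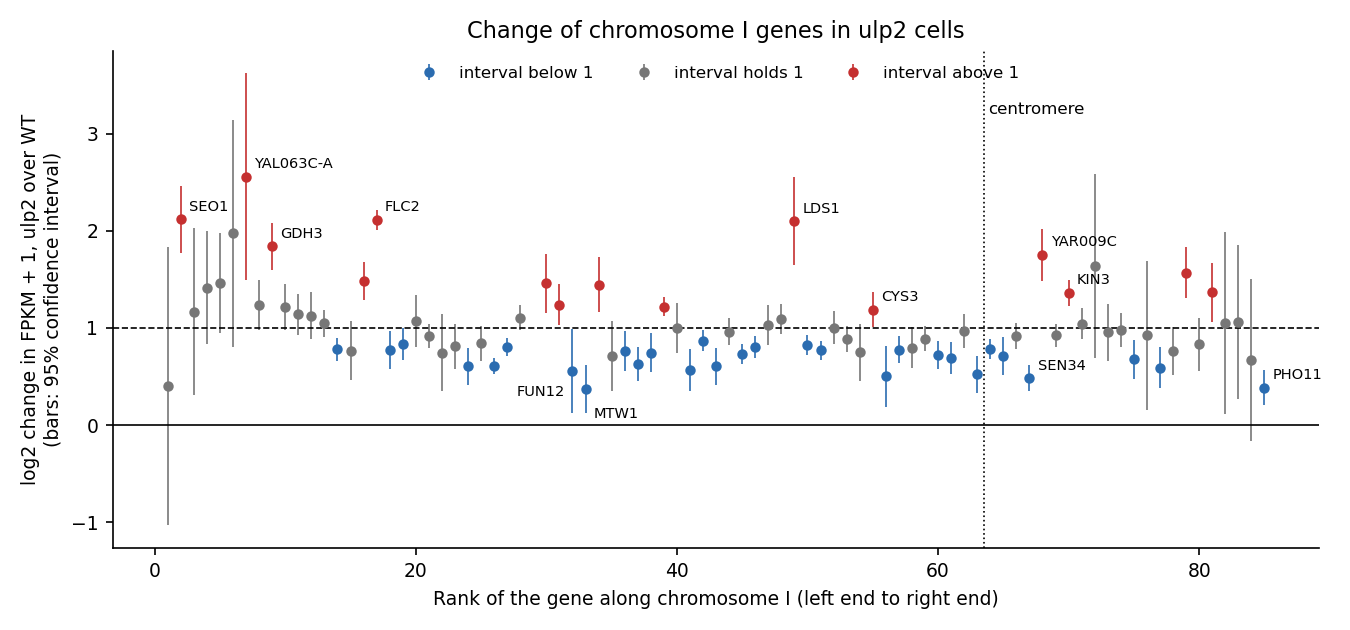
Change of the annotated members in ulp2 over WT (y axis, log2 of FPKM + 1, with 95% confidence intervals) in order along chromosome I (x axis), coloured by whether the interval lies below, holds or lies above 1. YAL037C-A, listed at 0 in every WT library, is left out. FLC2 stands at 2.11 with a narrow interval, and MTW1 (0.37) and PHO11 (0.38), a gene with near-identical copies, lie lowest.

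Genes of protein synthesis, among them EFB1, the annotated member of highest level per length, mostly stayed below a doubling over WT. The list held 5 genes: all 5 rose in ulp2, 3 below a doubling, 1 following it and 1 exceeding it, with a median change of 0.69 over WT. Over slx5 0 were below, 2 followed a doubling and 3 exceeded it, with a median of 1.24, and over set1 3 were below and 2 followed it, with a median of 0.67. EFB1 (YAL003W, chrI:142174-143160), which encodes a subunit of the translation elongation factor eEF1B, had 6803, 6309.7 and 6425 FPKM in ulp2, 3430.3, 3571 and 3425 FPKM in the double mutant, 3123, 3197 and 3223 FPKM in slx5, 4668, 4088 and 3839.8 FPKM in set1 and 4314, 3774 and 4059 FPKM in WT. The 3 ulp2 libraries lay above all others, and the change over WT was 0.69 with an interval of 0.52 to 0.85 and an adjusted p of 7.10e-06. The annotated snoRNA gene SNR18 lies within EFB1 on the same strand, and its reads cannot be separated in this table. MAK16, needed to make the large ribosomal subunit, had 383, 398 and 379 FPKM in ulp2 and 243, 285 and 236 FPKM in WT, a change of 0.61 with an interval of 0.42 to 0.80. FUN12, the initiation factor eIF5B, had 577, 739 and 722 FPKM in ulp2 and 525, 446 and 416 FPKM in WT. Its groups do not overlap, but the change of 0.55 (adjusted p 0.0319) lost its call without ulp2 replicate 1 or 2 or WT replicate 1 or 2, at adjusted p of 0.0745 to 0.1002. RBG1, a GTP-binding protein that associates with translating ribosomes, was the member of this list past a doubling. It had 406, 359 and 367 FPKM in ulp2 and 182, 139.7 and 157 FPKM in WT, a change of 1.24 with an interval of 1.03 to 1.46. ECM1, which works in export of the large ribosomal subunit, followed a doubling at 1.13.

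Genes of transcription, chromatin and RNA processing held none that exceeded a doubling. All 9 rose, 5 below a doubling and 4 following it, with a median of 0.75. SEN34 (YAR008W, chrI:158966-159793), a subunit of the tRNA splicing endonuclease, had 63.2, 59.4 and 59.5 FPKM in ulp2, 34.9, 37.2 and 31.00 FPKM in the double mutant, 29.9, 28.96 and 30.1 FPKM in slx5, 40.9, 39.98 and 37.9 FPKM in set1 and 44.6, 42.02 and 42.5 FPKM in WT. The ulp2 libraries were highest and the slx5 libraries lowest, with no overlap between ulp2 and WT. Its change in ulp2 over WT was 0.49 with an interval of 0.35 to 0.62. TFC3, the largest subunit of the RNA polymerase III factor TFIIIC, averaged 30.2 ± 1.57 FPKM in ulp2 and 20.8 ± 1.96 FPKM in WT (SD, n = 3 each), a change of 0.52. SWC3, of the SWR1 chromatin remodeller, averaged 33.8 ± 1.91 FPKM in ulp2 and 23.6 ± 0.632 FPKM in WT (SD, n = 3 each), a change of 0.50. The remodeller gene FUN30 stood at the other end of the list, with 76.4, 86.7 and 85.3 FPKM in ulp2, 36.9, 39.6 and 38.01 FPKM in WT and a change of 1.09, its interval of 0.94 to 1.25 holding a doubling. DEP1 of the Rpd3L deacetylase complex (0.75), PTA1 of the cleavage and polyadenylation factor (0.84) and POP5 of RNase P (0.71) also followed a doubling. OAF1, an oleate-responsive transcription factor, and PRP45, a splicing factor, stayed below it at 0.77 and 0.76.

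Of the genes of DNA replication and repair, RFA1 and NTG1 followed a doubling and SAW1 stayed below. RFA1, the largest subunit of replication protein A, had 96.3, 94.6 and 89.6 FPKM in ulp2, 77.4, 75.5 and 82.3 FPKM in the double mutant, 68.9, 65.5 and 71.1 FPKM in slx5, 57.4, 51.96 and 51.3 FPKM in set1 and 49.1, 51.97 and 46.1 FPKM in WT. Every ulp2, double mutant and slx5 library lay above every WT library. The change in ulp2 over WT was 0.92 (0.79 to 1.05). NTG1, a DNA glycosylase of base excision repair, changed by 1.002 in ulp2 over WT, and SAW1, which brings a nuclease to recombination intermediates, by 0.56. In set1 both NTG1 (-0.66) and SAW1 (-0.34) fell below WT, SAW1 with no call without set1 replicate 1 or 2 or WT replicate 1 (adjusted p 0.0623 to 0.0752).

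Genes of the cell cycle, kinetochore, polarity and phosphatases spread widely around a doubling. All 10 rose in ulp2, 4 below a doubling, 4 following it and 2 exceeding it, with a median of 0.94 and a range of 0.37 to 1.36. KIN3 (YAR018C, chrI:170396-171703), a kinase of the NIMA family, had 91.9, 89.4 and 92.00 FPKM in ulp2, 45.6, 42.4 and 41.1 FPKM in the double mutant, 42.3, 41.3 and 43.1 FPKM in slx5, 43.4, 43.8 and 42.6 FPKM in set1 and 32.3, 38.7 and 33.6 FPKM in WT. The ulp2 libraries stood apart from all the rest, at 1.36 over WT with an interval of 1.23 to 1.50 and an adjusted p of 2.09e-09. MYO4, the type V myosin that carries mRNAs into the bud, was the other gene above a doubling at 1.22 (1.12 to 1.32). MTW1 (YAL034W-A, chrI:79718-80587), a kinetochore subunit, had 25.9, 29.6 and 25.7 FPKM in ulp2 and 20.4, 20.6 and 20.95 FPKM in WT. The groups do not overlap, yet the change was 0.37 (0.13 to 0.62), the smallest in the list, and its call was lost without ulp2 replicate 1 (0.31, adjusted p 0.0607) and with quantile normalization (0.25, adjusted p 0.0815). CDC24, the exchange factor for Cdc42 (0.80), the phosphatase scaffold TPD3 (0.77) and GIP4 (0.63) also stayed below. The mitotic exit genes CDC15 (1.04) and LTE1 (0.96), the spindle pole gene SPC72 (0.91) and ATS1 (1.03) followed a doubling.

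The promoter stretches of MTW1 and RFA1 are shown because a kinetochore gene that stayed well below a doubling and a replication gene that followed one both hold ACGCGT, the motif of the G1/S factor MBF. That string was in 3 of 85 member promoters, 3.53%, and in 3.07% of the 6001 promoters of the genome. Each stretch runs from 250 bases before to 50 bases after the annotated start of the gene, read from RefSeq's R64 genome, on the gene's own strand. Capitals mark matches, on either strand, to ACGCGT, to the TATA box string TATAAA and to AGGGG, the Msn2 and Msn4 motif.
MTW1 promoter, chrI:79468-79767, plus strand: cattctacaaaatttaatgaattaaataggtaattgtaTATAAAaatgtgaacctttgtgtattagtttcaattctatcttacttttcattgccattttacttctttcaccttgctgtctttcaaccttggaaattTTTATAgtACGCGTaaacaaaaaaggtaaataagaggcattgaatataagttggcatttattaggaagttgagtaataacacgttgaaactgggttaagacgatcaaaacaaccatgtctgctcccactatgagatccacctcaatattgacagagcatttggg
RFA1 promoter, chrI:158570-158869, minus strand: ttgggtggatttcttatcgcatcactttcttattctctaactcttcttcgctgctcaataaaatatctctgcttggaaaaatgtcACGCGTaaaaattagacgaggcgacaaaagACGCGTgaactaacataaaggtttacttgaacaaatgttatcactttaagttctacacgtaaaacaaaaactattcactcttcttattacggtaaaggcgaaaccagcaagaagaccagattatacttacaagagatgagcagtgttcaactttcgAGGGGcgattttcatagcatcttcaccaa
In MTW1 the ACGCGT match begins 106 bases before the start, and TATAAA matches begin 212 and 114 bases before it. In RFA1 there are matches at 165 and 135 bases before the start. The third member with the string is SEN34, whose start lies beside that of RFA1 on the opposite strand, so that both windows cover some of the same bases.

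The secretory pathway gave the largest list, 15 genes, of which all rose in ulp2. Of these, 7 stayed below a doubling, 7 followed it and 1, FLC2, exceeded it, with a median of 0.80. FLC2 (YAL053W, chrI:45899-48250), a membrane protein needed for FAD uptake into the endoplasmic reticulum, had 234, 229 and 234 FPKM in ulp2, 136, 128 and 133 FPKM in the double mutant, 118, 122 and 120.1 FPKM in slx5, 84.7, 77.2 and 84.96 FPKM in set1 and 50.1, 55.3 and 53.3 FPKM in WT. The strains did not overlap in any library, in the order ulp2, double mutant, slx5, set1 and WT from high to low. The change in ulp2 over WT was 2.11 (2.01 to 2.22, adjusted p 2.02e-12), and in the strains with no general rise of chromosome I it was 1.17 in slx5 and 0.63 in set1 over WT. Set against slx5, the change in ulp2 was 0.95 (0.84 to 1.05).

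Several well expressed members of the secretory list stayed below a doubling. ERV46, a COPII vesicle protein, had 463, 458 and 464 FPKM in ulp2 and 307, 311 and 288 FPKM in WT, a change of 0.61 (0.53 to 0.69). The p24 proteins ERP1 and ERP2 changed by 0.71 and 0.72, and PMT2, a protein O-mannosyltransferase, by 0.73. SNC1, a vesicle SNARE of exocytosis, had 198, 234 and 213 FPKM in ulp2, 229, 232 and 254 FPKM in the double mutant, 185, 193 and 209 FPKM in slx5, 169.4, 191 and 214 FPKM in set1 and 138, 129 and 116 FPKM in WT. All 4 mutants lay above WT in every library, by 0.75, 0.90, 0.61 and 0.58 in that order of strains. The flippase gene DRS2 (0.87) and the nucleoside transporter gene FUN26 (0.80) were below a doubling as well, and the annotated noncoding gene HRA1 overlaps DRS2 on the opposite strand. Among those that followed a doubling were CNE1, a calnexin (1.05), VPS8 of the CORVET tethering complex (0.97) and SYN8, an endosomal SNARE (0.89). SPO7, of the phosphatase complex that controls nuclear membrane growth (0.80), SWH1, an oxysterol-binding protein (0.83), and FRT2 (1.003) did so too. MST28, a protein of COPI and COPII vesicles with a near-identical copy elsewhere, also counted as following, at 0.76 (0.51 to 1.01).

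The FLC2 promoter stretch is shown because this gene had the highest change in ulp2 over WT among annotated members of 10 FPKM or more in WT, and rose in every mutant. Capitals mark matches to TGAAACA, the Ste12 motif, to TATAAA and to AGGGG on either strand. The TATAAA and AGGGG matches, 116 and 110 bases before the start, stand side by side and read as 1 run.
FLC2 promoter, chrI:45649-45948, plus strand: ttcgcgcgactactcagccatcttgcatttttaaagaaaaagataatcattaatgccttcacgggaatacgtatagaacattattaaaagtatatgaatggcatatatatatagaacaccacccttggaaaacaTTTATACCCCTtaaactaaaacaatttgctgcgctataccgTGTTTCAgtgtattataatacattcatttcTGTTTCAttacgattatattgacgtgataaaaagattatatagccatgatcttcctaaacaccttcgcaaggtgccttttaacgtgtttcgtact
TGAAACA matches lie 75 and 45 bases before the start, both on the strand opposite to the gene, as are the TATAAA and AGGGG matches. That string was found in 14.1% of the 85 member promoters and in 7.50% of all promoters, AGGGG in 22.4% and 21.6%, and TATAAA in 41.2% and 45.2%.

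Mitochondrial and peroxisomal genes numbered 9, and all rose in ulp2: 2 stayed below a doubling, 6 followed it and 1 exceeded it, with a median of 0.83. The exception was YAT1, a carnitine acetyltransferase of the outer mitochondrial membrane, with 12.96, 12.9 and 15.6 FPKM in ulp2, 10.7, 8.94 and 10.2 FPKM in the double mutant, 7.66, 10.1 and 9.75 FPKM in slx5, 9.18, 8.52 and 8.57 FPKM in set1 and 3.40, 4.58 and 4.03 FPKM in WT. All mutant libraries lay above all WT libraries, so the change of 1.57 over WT stands beside changes of 1.02 in slx5 and 0.97 in set1. Against slx5, ulp2 was higher by 0.55 (0.28 to 0.82), which is below a doubling. CYC3, the heme lyase that attaches heme to cytochrome c, changed by 1.11, GEM1, a GTPase of the mitochondrial outer membrane, by 1.07, and MDM10, of the contact site between mitochondria and endoplasmic reticulum, by 0.78. The iron-sulfur cluster assembly genes BOL1 (0.81) and BOL3 (0.74), the peroxisomal gene PEX22 (0.77) and FUN14 (0.89) followed a doubling with intervals that reach just past it.

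Of the 8 metabolic enzymes all rose in ulp2, 2 below a doubling, 3 following it and 3 exceeding it, with a median of 1.16. CYS3 (YAL012W, chrI:130799-131983), cystathionine gamma-lyase of cysteine synthesis, had 797, 868 and 879 FPKM in ulp2, 479, 506 and 474 FPKM in the double mutant, 465, 483 and 492 FPKM in slx5, 459.6, 396 and 452 FPKM in set1 and 327, 421 and 372 FPKM in WT. The ulp2 libraries were above all others, and its change of 1.19 (1.01 to 1.37) lay just past a doubling. GDH3, a glutamate dehydrogenase, had 58.05, 70.3 and 75.9 FPKM in ulp2, 41.6, 36.3 and 38.4 FPKM in the double mutant, 29.3, 33.4 and 32.3 FPKM in slx5, 28.4, 22.04 and 24.3 FPKM in set1 and 16.3, 19.4 and 19.00 FPKM in WT. Every mutant library was above the WT libraries, and the ulp2 change was 1.84 (1.60 to 2.08). ACS1, an acetyl-CoA synthetase, averaged 24.6 ± 1.61 FPKM in ulp2 and 8.14 ± 0.283 FPKM in WT (SD, n = 3 each), a change of 1.48 (1.29 to 1.68).

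GCV3 and PHO11 were the enzymes that stayed below a doubling, and both differed more between other strains. GCV3 (YAL044C, chrI:57950-58462), the H protein of glycine cleavage, had 422, 358 and 346 FPKM in ulp2, 445, 468 and 495 FPKM in the double mutant, 449.8, 446 and 424 FPKM in slx5, 235, 288 and 247 FPKM in set1 and 259, 231 and 248 FPKM in WT. The double mutant and slx5 lay above ulp2 in every library, and ulp2 rose over WT by 0.60 but fell against slx5, at -0.23 (adjusted p 0.0414). That fall lost its call without any 1 of 5 libraries, all but ulp2 replicate 0 (adjusted p 0.0583 to 0.158), and with libraries centred on rows off chromosomes I and XII (-0.15, adjusted p 0.230). PHO11 (YAR071W, chrI:225460-226863), a secreted acid phosphatase with near-identical copies elsewhere in the genome, had 54.2, 52.1 and 48.6 FPKM in ulp2, 16.7, 16.8 and 16.8 FPKM in the double mutant, 18.98, 17.2 and 15.5 FPKM in slx5, 69.8, 68.03 and 57.02 FPKM in set1 and 39.4, 37.9 and 40.7 FPKM in WT. The double mutant and slx5 libraries lay under WT, the set1 libraries above all the rest, and the ulp2 libraries between set1 and WT, at 0.38 over WT. ADE1, of purine synthesis, followed a doubling in ulp2 at 0.92 and was higher in set1 too, at 0.90, with 434, 432 and 415 FPKM in ulp2, 439, 409 and 416 FPKM in set1 and 228, 220.4 and 226 FPKM in WT. The butanediol dehydrogenase gene BDH1 rose by 1.14 in ulp2 and by 1.09 in slx5, and the difference between these strains was 0.045 (-0.17 to 0.26). Its neighbour BDH2 rose by 1.22 in ulp2 and by 1.71 in the double mutant.

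The promoter stretches of CYS3 and GCV3, an amino acid gene past a doubling and one that stayed below it, are given to compare their motifs. Capitals mark CACGTG, the motif of Cbf1 and Pho4, and TGACTC, the Gcn4 motif, on either strand.
CYS3 promoter, chrI:130549-130848, plus strand: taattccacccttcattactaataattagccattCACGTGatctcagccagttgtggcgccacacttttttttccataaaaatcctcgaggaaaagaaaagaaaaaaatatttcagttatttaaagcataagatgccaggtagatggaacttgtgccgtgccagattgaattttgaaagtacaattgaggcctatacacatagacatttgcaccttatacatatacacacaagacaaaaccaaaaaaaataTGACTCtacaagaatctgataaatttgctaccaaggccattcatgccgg
GCV3 promoter, chrI:58413-58712, minus strand: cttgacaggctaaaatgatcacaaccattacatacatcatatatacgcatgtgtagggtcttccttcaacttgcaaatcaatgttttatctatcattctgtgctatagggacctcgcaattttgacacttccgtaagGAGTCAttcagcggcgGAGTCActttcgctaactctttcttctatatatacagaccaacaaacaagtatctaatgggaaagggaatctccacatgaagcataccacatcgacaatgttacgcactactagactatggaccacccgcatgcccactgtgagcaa
CYS3 holds CACGTG beginning 216 bases before the start, and its TGACTC match begins at the second base of the coding sequence. GCV3 holds TGACTC at 113 and 97 bases before the start, on the strand opposite to the gene. CACGTG was found in 3.53% of member promoters and 2.92% of all promoters, and TGACTC in 11.8% and 7.98%. Of the annotated members, TGACTC stood in 1 of 29 that stayed below a doubling, 5 of 40 that followed it and 4 of 16 that exceeded it. Those 4 were CYS3, matched in its coding sequence, YAT1, LDS1 and YAL037C-A, the last listed at 0 in every WT library. In the same order TGAAACA stood in 4, 7 and 1, CACGTG in 1, 0 and 2, and ACGCGT in 2, 1 and 0. AGGGG stood in 4, 11 and 4, and TATAAA in 10, 16 and 9. These counts describe the windows and were not tested.

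The genes of the nuclear pore and nutrient signalling all stayed below a doubling: NUP60, of the pore's nuclear basket, at 0.78, PSK1, a PAS-domain kinase, at 0.83, and GPB2, a regulator of the protein kinase A pathway, at 0.78. Of the 8 members of subtelomeric families all rose, 2 below a doubling, 4 following it and 2 exceeding it, with a median of 1.11. SEO1, a dipeptide permease near the left end, was at 8.26, 10.1 and 8.70 FPKM in ulp2, 4.47, 4.80 and 3.89 FPKM in the double mutant, 3.97, 4.37 and 3.40 FPKM in slx5, 6.43, 4.41 and 6.26 FPKM in set1 and 1.68, 1.12 and 1.15 FPKM in WT, higher in all mutants than in WT. The flocculin genes FLO1 and FLO9 changed by 1.37 and 1.23 in ulp2 over WT, at means of 7.42 and 10.7 FPKM in ulp2 and 2.28 and 3.97 FPKM in WT. UIP3 and DFP2, of the DUP240 membrane protein family, followed a doubling at 0.98 and 0.92, while DFP2 lost its call without any 1 of the 6 libraries (adjusted p 0.0530 to 0.130). KTD1 (0.68) and PRM9 (0.59), of the same family, stayed below. In all, 11 annotated members, FLO1 and FLO9 among them, have a near-identical stretch elsewhere in the genome (at least 95% identity over at least 50% of the length), so their reads may have been split between copies and their values are uncertain.

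**Figure D3:**
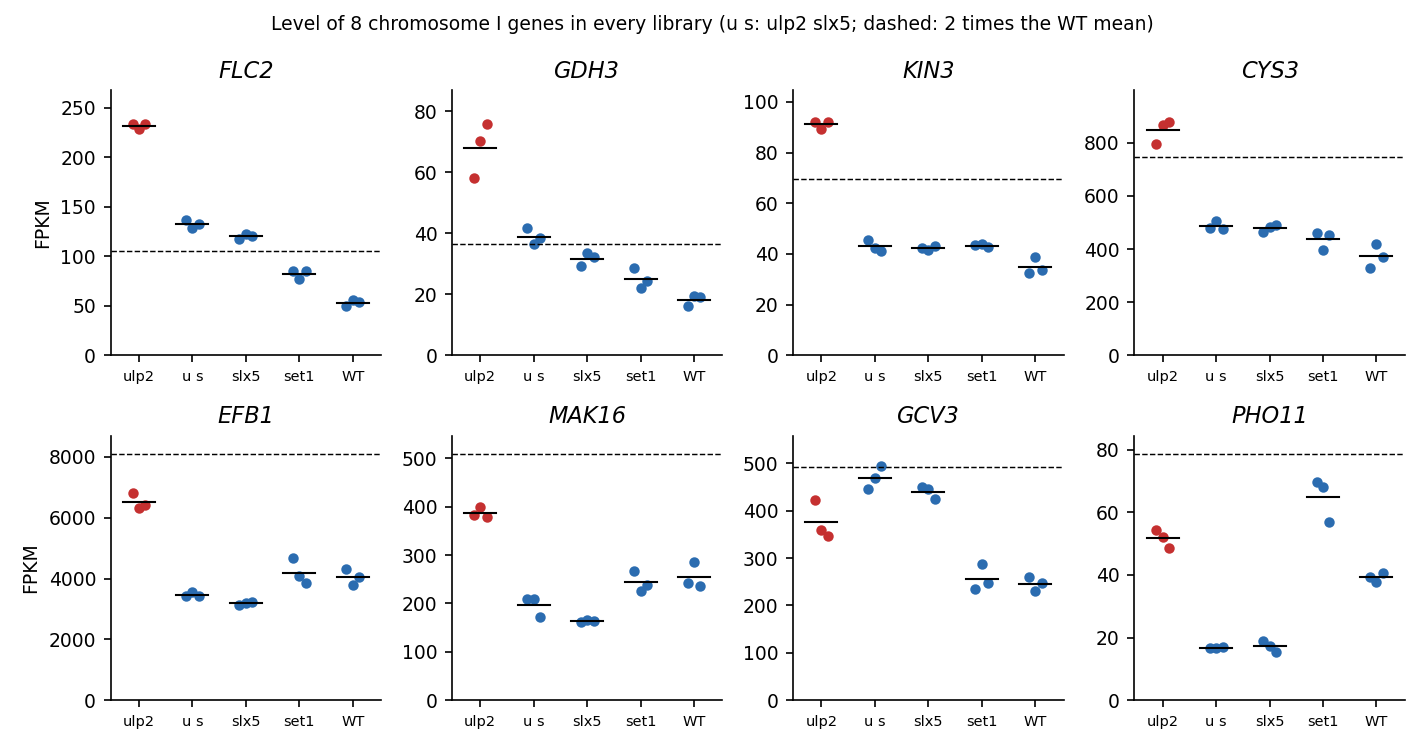
FPKM in every library (points) with the strain mean (bar) for 8 members, in ulp2, the ulp2 slx5 double mutant, slx5, set1 and WT, with a dashed line at 2 times the WT mean. FLC2, GDH3, KIN3 and CYS3 pass the line in ulp2, whereas EFB1, MAK16, GCV3 and PHO11 stay under it in ulp2.

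The remaining 34 members, the 19 known by ID alone among them, had no role assigned, and 25 of them rose in ulp2, with 3 below a doubling, 20 following it and 11 exceeding it. The median of their WT means was 2.52 FPKM, so many are near the filter. LDS1, a gene of the outer spore wall, was at 3.82, 4.71 and 4.61 FPKM in ulp2, 5.83, 3.88 and 4.87 FPKM in set1 and 0.157, 0.490 and 0.133 FPKM in WT, so its changes of 2.10 in ulp2 and 2.22 in set1 start from near 0. FUN19 was better measured, at 70.4, 83.1 and 84.9 FPKM in ulp2 and 23.03, 32.7 and 30.5 FPKM in WT, a change of 1.45 (1.16 to 1.73). YAR009C, a Ty1 retrotransposon reading frame with near-identical copies elsewhere, changed by 1.75, and the same row rose by 1.09 in the double mutant, 0.74 in slx5 and 0.71 in set1.

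YAL037C-A had 94.4, 207 and 171 FPKM in ulp2 and 59.2, 0 and 222 FPKM in the double mutant, and was listed at 0 in all slx5, set1 and WT libraries. No fold is given for it, and its place among the 21 members above a doubling rests on a fitted value alone. In a gene of 93 bases a single fragment is worth much FPKM.

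Of the 19 IDs outside the annotation, YAL037C-B was the most abundant member of all, with 11741, 11296 and 11596 FPKM in ulp2, 7114, 7244 and 6798 FPKM in the double mutant, 6057, 6102 and 6102 FPKM in slx5, 8861, 8333 and 8529 FPKM in set1 and 8407, 8695 and 8693 FPKM in WT. It rose by 0.42 in ulp2 (0.30 to 0.55). YAL004W had 212, 225 and 220.4 FPKM in ulp2, 433, 435 and 411 FPKM in the double mutant, 307, 355 and 347 FPKM in slx5, 106, 92.4 and 103 FPKM in set1 and 49.5, 48.7 and 55.2 FPKM in WT. It was highest in the double mutant and slx5, and ulp2 was 2.08 over WT but lower than slx5, at -0.61. Overlap of these IDs with other genes, those left out by name included, was not looked up. Whether the reads were counted by strand is not given in the sources used here. The levels of these IDs may therefore hold reads of overlapping genes, which cannot be told apart. YAR053W had 50.4, 43.1 and 41.4 FPKM in ulp2 and 9.58, 5.98 and 2.19 FPKM in WT, a change of 2.89, and YAR047C had 11.8, 9.66 and 14.5 FPKM in ulp2 and 0, 3.46 and 3.79 FPKM in WT, a change of 2.21. Both rose past a doubling, as did the rows YAR073W (1.75) and YAR075W (1.85). YAR073W reached 1 FPKM in 12 libraries and YAR075W in 11, so both are near the filter. Near-identical copies were looked for only in annotated members, and reads shared with such copies cannot be told apart here. Among annotated members with no assigned role, YAL063C-A rose by 2.56, with 18.4, 15.5 and 9.11 FPKM in ulp2 and 2.72, 0.690 and 1.51 FPKM in WT, and YAL037W by 1.46.

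Of the 9 members with no call in ulp2 over WT, 6 stayed under 10 FPKM on average in both strains. The others were YAL016C-A, YAL047W-A and YAR064W. YAL016C-A had 40.3, 58.7 and 47.8 FPKM in ulp2 and 35.9, 62.05 and 36.6 FPKM in WT, and the groups overlap, with a difference of 0.15 (-0.41 to 0.71). YAL047W-A differed by 0.11 (-0.47 to 0.69), and both intervals lie below a doubling. YAR064W differed by 1.05 (0.11 to 1.99, adjusted p 0.0565), an interval that holds a doubling. A member that reached 1 FPKM only in ulp2 had to differ to be counted: 88 of the 104 reached it in all 15 libraries and 16 in fewer. Among the 75 annotated members that averaged 10 FPKM or more in either ulp2 or WT, 74 rose, 29 stayed below a doubling, 33 followed it and 13 exceeded it.

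The same classes were taken against the other single mutants, whose chromosome I medians stood near the WT level and whose mating-type markers were those of ulp2. These comparisons share the ulp2 libraries with the one against WT. Against slx5, 87 members were higher in ulp2 and 2 lower, while 22.7% of all rows were higher and 23.0% lower, and the median change was 0.95. Other than YAL037C-A, the seripauperin gene PAU7 (2.05) and the row YAR030C (1.73) rose most among members of 10 FPKM or more, and YAL004W (-0.61) and GCV3 (-0.23) were the 2 lower. PAU7 has near-identical sequence elsewhere in the genome, so its value is uncertain. The interval held a doubling in 70 members, lay below it in 26 and above it in 8, against 10.4%, 88.9% and 0.633% of all rows. Against set1, 89 members were higher and 1 lower, with 22.8% of all rows higher and 26.0% lower, and a median of 0.86. Over set1, NTG1 rose most among the annotated members of 10 FPKM or more other than YAL037C-A (1.66), followed by DFP2 (1.65) and ACS1 (1.63), and PHO11 was the 1 member lower (-0.32). There, 51 members followed a doubling, 40 stayed below it and 13 exceeded it, against 11.1%, 87.3% and 1.56% of all rows.

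The members above a doubling over WT had lower medians over the other mutants. Their median was 1.75 over WT, 1.02 over slx5 and 1.05 over set1. Of the 21, 3 stayed below a doubling, 16 followed it and 2 exceeded it over slx5, and 4 stayed below, 12 followed and 5 exceeded it over set1. YAL004W was lowest over slx5 (-0.61) and LDS1 over set1 (-0.11). In slx5 over WT the median of these members was 0.74, with 16 of the 21 higher, against 25.6% of all rows. In set1 over WT it was 0.63, with 13 of 21 higher, against 22.1% of all rows. The 32 members below a doubling had medians of 0.68 over WT, 0.86 over slx5 and 0.62 over set1. In slx5 over WT their median was -0.24, with 17 lower and 4 higher, against 25.1% and 25.6% of all rows. The classes were made from the WT libraries that these slx5 and set1 changes also use, so the values are given side by side and not as a test. MAK16 shows the lower side: it changed by 0.61 over WT and by 1.24 (1.05 to 1.43) over slx5, its level in slx5 being 161, 166 and 163 FPKM. EFB1 likewise changed by 1.03 (0.87 to 1.20) over slx5, and NUP60 by 1.20 (1.09 to 1.30). RBG1 (1.31, 1.09 to 1.52) exceeded a doubling over slx5 as it did over WT, while KIN3 followed one over slx5 (1.09) and over set1 (1.06).

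**Figure D4:**
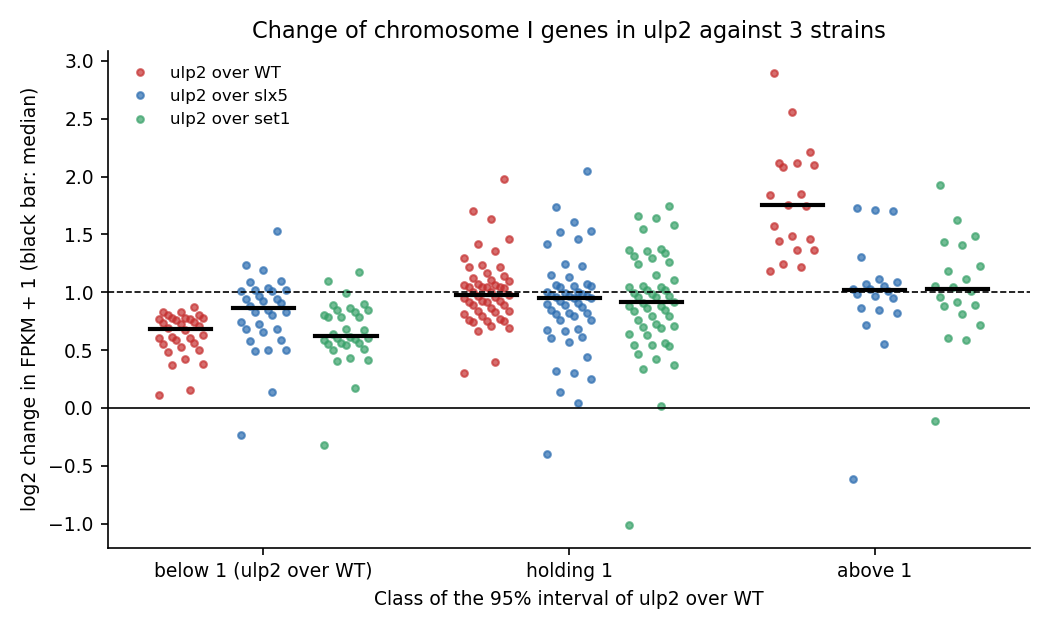
Change in ulp2 over WT, over slx5 and over set1 (y axis, log2 of FPKM + 1) for members grouped by the class of their interval over WT (x axis), with the median of each group as a black bar and YAL037C-A left out. The group above a doubling over WT has a median of 1.02 over slx5, near the dashed line of a doubling.

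In the double mutant most of the rise was absent. Against ulp2, 78 members were lower in the double mutant and 3 higher, where 26.2% of all rows were lower and 26.4% higher, and the median was -0.70. The largest falls among members of 10 FPKM or more were in YAR053W (-1.85), PHO11 (-1.57), DFP2 (-1.49), YAR030C (-1.37), ECM1 (-1.20) and NUP60 (-1.15). EFB1 changed by -0.91, ADE1 by -1.06 and KIN3 by -1.07, each close to the reverse of a doubling. The 3 higher genes were YAL004W (0.96), BDH2 (0.49) and GCV3 (0.33). GCV3 had no call by limma with libraries centred on rows off chromosomes I and XII (0.20, adjusted p 0.0883). Against WT the double mutant had 50 members higher and 9 lower, with a median of 0.30, while 32.9% of all rows were higher and 29.4% lower. With quantile normalization the split was 32 higher and 16 lower. The lower ones included PHO11 (-1.18), PRM9 (-0.51), MAK16 (-0.37), NUP60 (-0.37) and EFB1 (-0.22), EFB1 with no call without double mutant replicate 0 or 2 or WT replicate 0 or 2 (adjusted p 0.0556 to 0.0818). The largest rises other than YAL037C-A were YAL004W (3.04), YAL016C-B (1.74), BDH2 (1.71), BDH1 (1.33) and FLC2 (1.31), some of them from low levels, and YAL016C-B had no call with quantile normalization (1.195, adjusted p 0.0579).

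A smaller rise was seen in the double mutant over slx5, the strain that shares the SLX5 deletion. The comparison was added after the data were seen. There, 36 members were higher in the double mutant and 0 lower, with a median of 0.21, and 17.3% of all rows were higher and 13.4% lower. At an unadjusted p under 0.05 the count was 46 higher and 0 lower, against 1390 higher and 1229 lower among all 6474 rows. With 1 library left out in turn the count ran from 19 to 24, lower by over 1.5 times without double mutant replicate 0 or 1 or any slx5 replicate. Of the 36 members, 17 kept their call in every such fit. Chromosome XII had a median of 0.040 in the same comparison. CDC15 had 16.3, 13.96 and 13.5 FPKM in the double mutant and 10.7, 11.2 and 10.9 FPKM in slx5, a difference of 0.38, and TFC3 had 21.7, 22.4 and 25.5 FPKM in the double mutant and 17.8, 17.8 and 17.2 FPKM in slx5, a difference of 0.38. The mating-type markers differ between these strains as given above, and their part in this was not tested.

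The interaction of both deletions, also added after the data were seen, asks whether losing SLX5 acts the same in ulp2 as in WT cells. By arithmetic it equals the change of the double mutant over slx5 less that of ulp2 over WT. The ulp2 rise described above therefore enters it and is not measured anew. The interaction was lower in 73 members and higher in 0, with a median of -0.70, where 21.8% of all rows were lower and 20.0% higher. At an unadjusted p under 0.05, 77 members were lower and 0 higher, against 1620 lower and 1556 higher among all 6474 rows. On chromosome XII the median was -0.72. Since all ulp2 libraries come from 1 strain, a property of that strain and an effect of the deletion cannot be told apart.

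In the strains that keep ULP2, the chromosome I median moved little. In slx5 over WT 29 members were higher and 22 lower, with a median of 0.027, while 25.6% of all rows were higher and 25.1% lower. With quantile normalization the split was 20 higher and 24 lower. Among members of 10 FPKM or more in either strain, YAL004W (2.69), YAL016C-B (1.40) and FLC2 (1.17) rose most, YAL016C-B with no call without slx5 replicate 0 or 2 or WT replicate 1 (adjusted p 0.0834 to 0.134). FUN14, a mitochondrial outer membrane protein, rose by 0.64, SNC1 by 0.61 and BDH1 by 1.09, and PHO11 (-1.15), MAK16 (-0.63), SEN34 (-0.52) and SWC3 (-0.44) fell. The fall of SWC3 lost its call without slx5 replicate 0 or WT replicate 0 or 1 (adjusted p 0.0508 to 0.0988). In set1 over WT 26 members were higher and 6 lower, with a median of 0.056, while 22.1% of all rows were higher and 15.2% lower, and with quantile normalization 23 were higher and 12 lower. ADE1 (0.90), PHO11 (0.70) and SNC1 (0.58) were among the rises, and NTG1 (-0.66), the killer toxin resistance gene KTD1 (-0.42), FUN26 (-0.37), MTW1 (-0.31) and CNE1 (-0.31) among the falls. The fall of MTW1 lost its call without any 1 of the 6 libraries (adjusted p 0.0513 to 0.147). With only the set1 and WT libraries in the fit, 16 members were higher and 4 lower, and KTD1 had no call by limma (adjusted p 0.0634).

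The median change in ulp2 over WT was smaller in members of higher level. Under 10 FPKM in WT the median change was 1.41 over 29 members, from 10 to 30 FPKM it was 0.95 over 27, from 30 to 100 FPKM 0.84 over 30, and at 100 FPKM or more 0.74 over 18, of which 12 stayed below a doubling. Across the 104 members Spearman's rho between WT level and change was -0.44. The WT libraries enter both measures, and with levels taken from slx5 or set1 libraries, which do not enter the change, rho was -0.32 and -0.37. Gene length had a rho of 0.031 with the change over 85 annotated members. A member under 1 FPKM in every WT library, as YAL037C-A and LDS1 were, passed the filter only through other strains. This can raise the change of the lowest group and strengthen each rho with level. These values are descriptions across genes that share libraries, and none was tested.

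In ulp2 over WT the arms had medians of 0.89 over 63 annotated members left of the centromere and 0.92 over 22 right of it. The centromere, which holds the chromosome to the spindle, is shown because it parts the arms in the plot by gene order. It spans 118 bases, and capitals mark the outer elements, the TCACATG string of element I and the CCGAA core of element III.
CEN1, chrI:151465-151582, plus strand: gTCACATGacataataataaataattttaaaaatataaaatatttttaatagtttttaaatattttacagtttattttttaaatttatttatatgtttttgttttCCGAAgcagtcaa
Along 7 runs of 12 or 13 consecutive genes, the median in ulp2 over WT was 1.23, 0.82, 0.78, 0.92, 0.79, 0.94 and 0.88 from left to right. The first run, from YAL067W-A to CNE1, stood highest in all mutants, at 0.76 in the double mutant, 0.56 in slx5 and 0.43 in set1 over WT. Over slx5 its median in ulp2 was 1.07, and the 6 other runs lay between 0.83 and 0.99. The 13 members within 30 kb of an end had a median of 1.23 over WT and 1.03 over slx5, and their WT median was 1.84 FPKM. Distance from the nearer end had a rho of -0.26 with the change over WT and of -0.061 with the change over slx5, over 85 members.

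**Figure D5:**
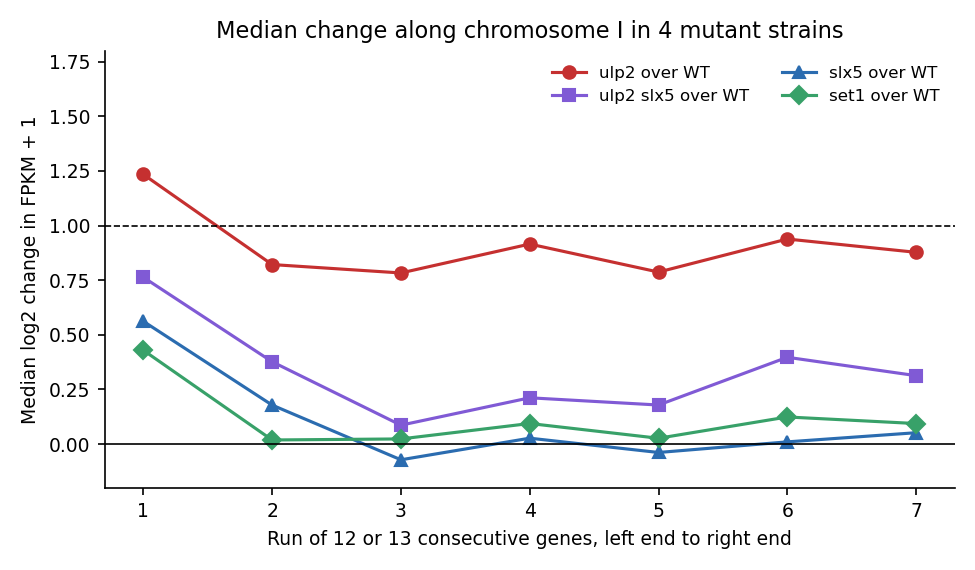
Median log2 change of FPKM + 1 over WT (y axis) in 7 runs of 12 or 13 consecutive annotated members from the left to the right end of chromosome I (x axis), in ulp2, the double mutant, slx5 and set1. The ulp2 line stays between 0.78 and 1.23 along the whole chromosome, and all 4 lines are highest in the first run.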

How the data were processed

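Levels are the FPKM that the authors deposited in 1 table of 15 libraries. TopHat2 2.0.12, Cuffdiff and build R64 are named in the submitters' processing notes. Read counts are not given. Values were compared as log2(FPKM + 1), a scale that understates changes of low genes, for the 6474 rows of at least 1 FPKM in at least 3 libraries. All 5 strains entered 1 limma 3.58.1 fit in R 4.3.3 (eBayes with trend, 10 residual degrees of freedom, two-sided, tested on simulated data), with Benjamini-Hochberg adjustment within each comparison. Positions and sequences come from RefSeq's R64, and near-identical copies from BLAST 2.17.0. The members, lists and motifs were chosen with earlier results of these data known. Genes named are the 10 of highest WT level, the 8 largest and 8 smallest ulp2 changes at 10 FPKM or more, up to 6 rises and falls in each other comparison, and members of the role lists. A few others, such as FUN19, and CDC15 and TFC3 in the double mutant, were chosen after their values were seen. Alternatives were the pseudocount, filter, 2 scalings, replicate block, fits of 2 strains, single libraries left out and a 99% interval.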

Additional observations from a re-analysis of the deposited data

Results flagged for a closer look

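The interaction term of the ULP2 and SLX5 deletions lay below 0 in most chromosome I members. In the limma fit, Benjamini-Hochberg adjusted, it was lower for 73 of the 104 members and higher for 0. The median interaction was -0.70 on the log2 scale, and 21.8% of all rows were lower and 20.0% higher. The term compares the double mutant minus ulp2 with slx5 minus WT. By arithmetic it is also the double mutant minus slx5, less ulp2 minus WT. Those changes had medians of 0.21 and 0.92, so the ulp2 rise itself enters the term. Its groups also differ in the mating-type markers given above. An effect of SLX5 and a difference between these 4 strains therefore cannot be told apart.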

How the results depend on the processing

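In ulp2 over WT the number of members called (95) stayed between 87 and 96 under the alternatives that kept all members, and was 80 of the 83 left by a filter at 10 FPKM. The median change (0.92) moved to 0.99 with a pseudocount of 0.1, 0.86 with a filter at 10 FPKM, 0.98 with libraries centred on rows off chromosomes I and XII, 0.79 with quantile normalization and 0.87 over annotated members of 10 FPKM or more. The last setting left 33 members following a doubling and 13 exceeding it, and quantile normalization left 11 exceeding it. Over slx5, centring left 17 members below a doubling, and over set1 the filter at 10 FPKM left 33 following one. In set1 over WT 20 members were called when only those strains were fitted. With 1 library left out the double mutant over slx5 gave 19 to 24 calls, and the ulp2 over WT median ran from 0.91 to 0.94. YAL047W-A, not called in ulp2 over WT, changed sign with quantile normalization (-0.23), without ulp2 replicate 1 (-0.036) and without WT replicate 2 (-0.070), its range with 1 library left out being -0.070 to 0.40, and YAL037C-B in the double mutant over WT became 0.19 with quantile normalization; the cause was not tested. Of the single-gene values under alternatives, 1045 kept their direction and side of the threshold and 52 lost a call.

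The labels give no pairing by replicate number, and little was seen: deviations of same-numbered libraries correlated at -0.13 to 0.14, over 0.1 in 2 of 30 pairs. These correlations cannot show how the libraries were prepared or batched. With the replicate block 95 members were called in ulp2 over WT, 32 stayed below a doubling, 50 followed it and 22 exceeded it. The calls of MTW1 in set1 over WT and of GCV3 in ulp2 over slx5 were lost under the block, at adjusted p of 0.0608 and 0.0597 by limma.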
